A study of Mus musculus with 2 samples.

Results

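The polyamine genes are 9 mouse genes that make, break down or control the supply of putrescine, spermidine and spermine, small positively charged molecules found in every cell. They were taken by name, and their probes were found by matching the transcript accession of each array spot to a RefSeq symbol. Of the 9 genes 8 had a probe, all 8 were measured on both arrays, and they stand among 11970 genes so measured and 23462 named on the array. The member without a probe was Amd1. The 8 genes were read by 17 probes, all well above background on both arrays and none with an outlier flag, and each probe was printed as 1 spot.

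The cells were naive CD8 T cells (CD44 low, CD62L high) from the spleen of C57BL/6 mice, all activated over 2 days by anti-TCR-β (3 µg/ml) and anti-CD28 (1 µg/ml), with 10 ng/ml of interleukin-2 added. The prednisolone culture received 1 µM of this synthetic glucocorticoid during those 2 days, and the other culture received vehicle. Both were then kept for 3 more days on a new plate in interleukin-2, and RNA was taken on day 5. There was 1 array per condition and no replicate, so no difference was tested and the spread between cultures is unknown. In bulk RNA, fewer cells that express a gene and less RNA per cell cannot be told apart.

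Polyamine synthesis starts with ornithine decarboxylase (Odc1), which makes putrescine and is the classical control point of the pathway. S-adenosylmethionine decarboxylase (Amd1) supplies the aminopropyl donor that spermidine synthase (Srm) and spermine synthase (Sms) add to lengthen the chain. Antizymes (Oaz1, Oaz2) bind ornithine decarboxylase and send it to the proteasome, and the antizyme inhibitor (Azin1) binds the antizymes in its place. Spermidine/spermine acetyltransferase (Sat1) and spermine oxidase (Smox) turn the longer polyamines back into shorter ones. T cells are known to raise polyamine synthesis when they are activated, and spermidine is the source of hypusine, the modified lysine that the translation factor eIF5A needs.

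Prednisolone-treated cells had 3.43-fold more signal for Srm. The other synthesis enzymes measured among the members differed less, with Odc1 1.23-fold higher and Sms at 1.02-fold. Amd1 had no probe of its own, and the probes assigned to its near relative Amd2 were 1.79-fold higher. The antizyme inhibitor Azin1 was 1.66-fold higher and the antizyme Oaz2 1.40-fold lower. Both turnover enzymes were lower, Smox by 1.91-fold and Sat1 by 1.44-fold. So the largest difference was in the step that makes spermidine, and each difference other than that of Srm was under 2-fold.

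Differences are log2 values, prednisolone minus vehicle, of the processed signal after each array was scaled to its 75th percentile, and ± is the error that the scanner software assigns to the spots. Of the 8 genes 1 (12.5%) was at least 2-fold higher, where 5.76% of all measured genes were. None was at least 2-fold lower, against 6.62% of all measured genes. Among the probes 3 of 17 (17.6%) passed 2-fold upward and 1 (5.88%) downward, against 5.57% and 6.53% of the probes of all named genes. The median over the 8 genes was −0.01, with 4 above 0 and 4 below, and the median over all genes was 0.00 with quartiles at −0.35 and 0.35. Scaling on the spike-in controls instead adds 0.24 to every difference, which takes Oaz1 above 0 and the median of the 8 genes to 0.23. With so few genes these shares describe the set and single out no gene.

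**Figure D1:**
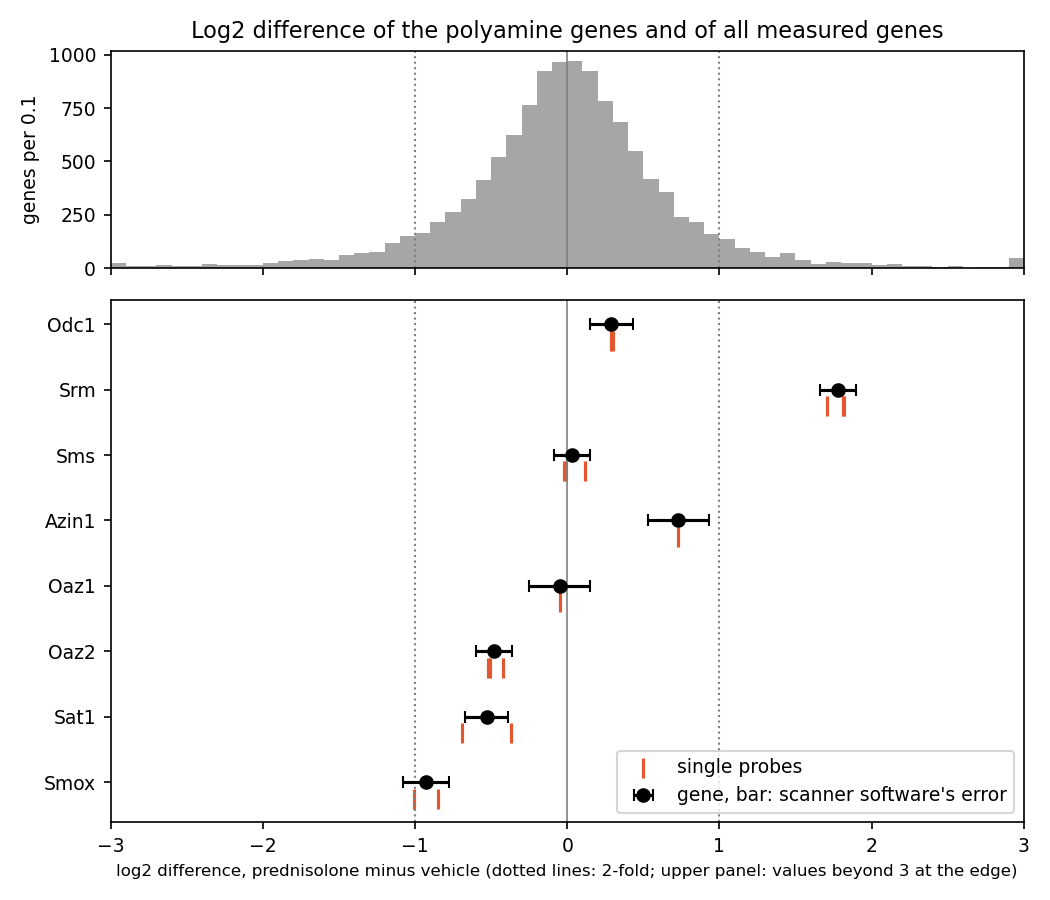
Log2 difference (prednisolone minus vehicle) of all 11970 measured genes as a histogram above, and of the 8 polyamine genes below, where points are genes, bars the scanner software's error and ticks single probes. Srm (1.78) lies beyond the 2-fold line, Azin1 (0.73) and Odc1 (0.29) lie to the right of 0, and Oaz2 (−0.48), Sat1 (−0.53) and Smox (−0.93) to the left.

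The bases before the start of 5 of these genes are shown because they include the rate-limiting enzyme, the 3 members with several probes that were lower on all of them, and the 1 promoter window of a member with the E-box that Myc and Max bind. They come from the RefSeq promoter table of build GRCm38.p6, which had windows for 7 of the 9 members (8 windows, since Sms has a pair of start sites). The members not covered are Srm and Azin1, so no count of matches below includes them. Each line gives the 250 bases before the start, 5′ to 3′ on the gene's strand. Capitals mark every match, on either strand and with overlaps allowed, to the E-box CACGTG, the core of the glucocorticoid response element ACANNNTGT, the GC box GGGCGG or the TATA box TATAAA.
Odc1, chr12:17544623-17544872, plus strand: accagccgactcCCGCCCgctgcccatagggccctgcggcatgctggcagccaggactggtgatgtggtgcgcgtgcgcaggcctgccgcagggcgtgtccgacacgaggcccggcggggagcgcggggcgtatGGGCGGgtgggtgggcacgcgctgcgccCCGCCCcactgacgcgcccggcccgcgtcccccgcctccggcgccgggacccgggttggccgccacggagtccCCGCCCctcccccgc
Sms, chrX:157492288-157492537, minus strand: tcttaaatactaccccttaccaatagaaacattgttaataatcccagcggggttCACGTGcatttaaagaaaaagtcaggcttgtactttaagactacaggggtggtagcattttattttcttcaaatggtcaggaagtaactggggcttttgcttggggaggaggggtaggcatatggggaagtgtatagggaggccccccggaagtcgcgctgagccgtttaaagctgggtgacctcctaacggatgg
Oaz2, chr9:65676298-65676547, plus strand: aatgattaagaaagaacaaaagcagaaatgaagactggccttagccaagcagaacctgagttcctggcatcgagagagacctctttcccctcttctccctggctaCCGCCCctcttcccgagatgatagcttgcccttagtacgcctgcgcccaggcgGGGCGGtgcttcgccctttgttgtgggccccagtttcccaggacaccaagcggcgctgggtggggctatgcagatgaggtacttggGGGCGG
Sat1, chrX:155216450-155216699, minus strand: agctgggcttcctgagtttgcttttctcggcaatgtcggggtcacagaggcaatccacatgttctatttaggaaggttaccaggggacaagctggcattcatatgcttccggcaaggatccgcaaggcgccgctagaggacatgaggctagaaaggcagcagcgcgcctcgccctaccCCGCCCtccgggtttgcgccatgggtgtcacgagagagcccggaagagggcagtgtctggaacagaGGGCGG
Smox, chr2:131491612-131491861, plus strand: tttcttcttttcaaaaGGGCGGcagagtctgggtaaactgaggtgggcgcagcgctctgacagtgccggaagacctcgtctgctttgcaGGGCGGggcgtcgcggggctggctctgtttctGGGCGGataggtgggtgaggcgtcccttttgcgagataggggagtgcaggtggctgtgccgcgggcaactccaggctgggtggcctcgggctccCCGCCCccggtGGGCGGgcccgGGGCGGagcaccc

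The GC box was found in 6 of the 8 member windows, with 6 matches in Smox, 4 in Odc1, 3 in Oaz2 and 2 in Sat1, against 32.7% of all 32851 windows. CACGTG was found once, in Sms, 196 bases before the more distal of its starts, and 6.02% of all windows hold it. Neither ACANNNTGT nor TATAAA was found in a member window, and they occur in 5.84% and 12.4% of all windows. These are letter matches in short windows and describe no binding. Bases farther upstream or after a start were not searched, so a missing match holds for the window only.

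Srm, which encodes the enzyme that joins putrescine and an aminopropyl group to make spermidine, was read by 3 probes. Their processed signals, in intensity units before scaling, were 2195 with vehicle and 7418 with prednisolone for the first, 1532 and 5217 for the second, and 803 and 2541 for the third. The prednisolone array was the higher on each of them. The differences were 1.81, 1.82 and 1.71, and the gene's value was 1.78 ± 0.12, at percentile 98.5 of all measured genes. The probes of Srm thus spanned 0.11, less than the median span of 0.28 among the 652 genes with 3 probes. The other members with 3 probes were also under that median, with spans of 0.14 for Sms and 0.09 for Oaz2.

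Odc1, the gene of ornithine decarboxylase, was also brighter with prednisolone, by much less. Its bright probe gave 8528 intensity units with vehicle and 10070 with prednisolone, and its dim probe gave 733 and 871. The probes differ widely in brightness, and their differences were nearly the same (0.29 and 0.30). The gene's value was 0.29 ± 0.14, at percentile 71.9 and inside the quartiles of all genes. Its promoter, printed above, holds 4 GC boxes.

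Sms, which encodes the enzyme that turns spermidine into spermine, had nearly equal signals on both arrays. The 3 probes gave 5110 and 4887, 1267 and 1326, and 864 and 821 intensity units for vehicle and prednisolone. Differences of −0.01, 0.12 and −0.02 average to 0.03 ± 0.12, which is within the software's error, and the sign turns to negative under 3 of 10 other settings. By gene value the neighbouring synthase steps were unlike on these 2 arrays, with 1.78 for Srm and 0.03 for Sms. Probes of a gene read the same 2 RNA samples and are not replicates of the cultures. The window with CACGTG printed above belongs to the more distal start of Sms. The window of its other start, not printed, holds 4 GC boxes and no CACGTG. Whether either window bears on the level of Sms was not tested.

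Amd1 had no probe under its own accession. The array carries 4 probes for the accession that RefSeq assigns to Amd2, a near relative for which the same table lists Amd1 as a synonym. Which of the 2 transcripts these probes bind was not tested. They were all brighter with prednisolone. The 3 without an outlier flag went from 2742 to 5080, from 370 to 653 and from 100 to 157 intensity units, and the flagged one from 3689 to 7250. The value for Amd2 was 0.84 ± 0.12, 0.88 with the flagged spot kept and 1.07, past 2-fold, under spike-in scaling.

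**Figure D2:**
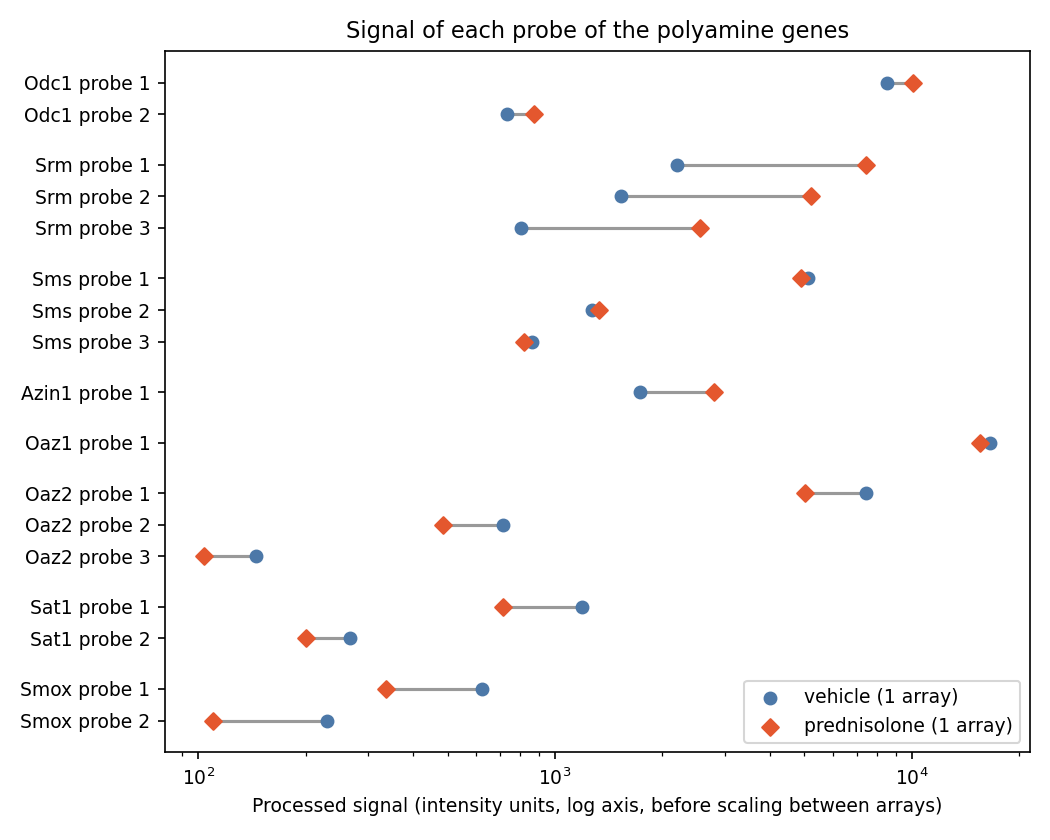
Processed signal (intensity units, log axis, before scaling) of each of the 17 probes of the 8 polyamine genes on the vehicle array (circles) and the prednisolone array (diamonds), with each gene's probes ordered by brightness. All 3 Srm probes move far to the right, the Sms pairs nearly coincide, and every Oaz2, Sat1 and Smox probe lies to the left with prednisolone.

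Among the regulators of ornithine decarboxylase, the inhibitor and the antizymes differed in unlike ways. Azin1, whose product is an inactive relative of ornithine decarboxylase that captures antizyme, had 1 probe, at 1735 intensity units with vehicle and 2786 with prednisolone. Its difference was 0.73 ± 0.20, at percentile 89.8, and 0.97 under spike-in scaling. Resting on a single probe, it has no second reading on the array.

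Oaz1, the gene of the main and broadly expressed antizyme, had the brightest probe of the 17, with 16608 intensity units for vehicle and 15541 for prednisolone. Its difference of −0.05 ± 0.20 was within the software's error, and its sign turned under spike-in scaling (0.19) and in the submitters' value table (0.02). Oaz2, a second antizyme gene, was lower on all 3 probes, from 7417 to 5014, from 717 to 486 and from 145 to 104 intensity units. The differences of −0.52, −0.51 and −0.42 average to −0.48 ± 0.12, at percentile 18.7, and −0.24 under spike-in scaling. Antizyme activity is set mainly by a frameshift during translation, which a transcript level does not show.

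The turnover enzymes were both lower with prednisolone, on all 4 probes. Smox, which oxidises spermine back to spermidine and releases hydrogen peroxide, gave 626 and 335 intensity units for vehicle and prednisolone on its brighter probe and 229 and 110 on the other. The differences were −0.85 and −1.01, so 1 probe lies just beyond 2-fold and the other just short of it. The gene's value was −0.93 ± 0.15, at percentile 7.44, the lowest of the 8. It was −0.72 after another background correction (normexp) and −0.69 under spike-in scaling.

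Sat1, which acetylates spermidine and spermine for export or breakdown, had probes for a pair of transcript accessions. The brighter went from 1190 to 713 intensity units and the dimmer from 267 to 200. They were both lower with prednisolone, with differences of −0.69 and −0.37, the widest probe span of the 8 genes (0.32). The gene's value was −0.53 ± 0.14, at percentile 17.1. Sat1 is itself controlled strongly after transcription by polyamines, which arrays do not measure.

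Of the 6 members with several probes, 5 had all their probes on the same side of 0, and Sms was the exception. How often this holds among all 3912 genes with several probes, whose median probe span was 0.17, was not counted. The count therefore does not set the members apart from other genes. The spread between repeat spots of the same arrays was small beside the larger differences. Probes printed up to 10 times, with signals inside the members' range of 145 to 16608 intensity units with vehicle, had a median SD of the difference between spots of 0.048 (10 probes) and a highest SD of 0.12. The median brightness of the members' spots was 6.03 to 466 times the local background with vehicle and 4.86 to 501 times with prednisolone, lowest for the dim Oaz2 probe. Error shared by all spots of an array and the spread between cultures are not part of any of these figures.

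Genes around the pathway were taken as 6 lists written from general knowledge, 61 genes of which 37 were measured. Of these 3 (8.11%) passed 2-fold upward and 2 (5.41%) downward, close to the 5.76% and 6.62% of all genes, and their median was 0.19. The 3 higher genes were Mat2a, Mtap and Ass1. The 2 lower ones were Mxi1 and Slc12a8. All of them but Mat2a rest on a single probe and have no second reading on the array.

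The methionine cycle and its salvage branch, which provide the aminopropyl donor and recover its leftover methylthioadenosine, had 11 of 13 genes measured. Of these 2 passed 2-fold upward and none downward, where 5.76% and 6.62% of all measured genes did, and their median was 0.28. Mat2a, the gene of the enzyme that makes S-adenosylmethionine outside the liver, gave 4748 and 18635 intensity units for vehicle and prednisolone on the first probe and 4833 and 18417 on the other. The differences of its probes were 1.98 and 2.02, with an error of 0.14 for the gene, and both exceeded those of the Srm probes. Mtap, which encodes the phosphorylase that clears methylthioadenosine after each aminopropyl transfer, went from 1175 to 2727 intensity units (1.26 ± 0.20). The later salvage enzymes differed less, with Enoph1 at 0.42 ± 0.16, Adi1 at 0.06 ± 0.20 and Mri1 at −0.31 ± 0.20. Mat2b, the regulatory subunit that pairs with Mat2a, was −0.09 ± 0.14.

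All 4 genes of the hypusine branch were above 0 and none reached 2-fold. Their median was 0.38, where all measured genes had a median of 0.00 and an upper quartile of 0.35. Eif5a, which encodes the translation factor that carries hypusine, went from 11356 to 18073 intensity units (0.72 ± 0.20). A second and much brighter probe, flagged on both arrays, went from 91213 to 108080 with a smaller difference (0.29). With that probe kept the value for Eif5a was 0.51. Dhps and Dohh, the genes of the enzymes that build hypusine from spermidine, were 0.38 ± 0.14 and 0.38 ± 0.20. Under spike-in scaling all 4 were still under 2-fold.

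Arginine and ornithine supply had 6 of 12 genes measured, with a median of −0.04. Ass1, the gene of argininosuccinate synthase, which remakes arginine from citrulline, was 1.42 ± 0.20 (8826 and 22844 intensity units). The arginases, which make ornithine from arginine, gave no usable signal, since neither Arg1 nor Arg2 was well above background on an array (2.78 to 2.99 intensity units). The arginine transporter gene Slc7a1 was 0.03 ± 0.20 and the mitochondrial ornithine enzyme genes Oat and Aldh18a1 were −0.10 ± 0.20 and −0.51 ± 0.20. The ornithine carrier gene Slc25a15 was well above background with prednisolone only, on a single dim probe (11.9 intensity units with vehicle and 30.4 with prednisolone). Its bound of 2.47-fold higher was set by the lowest signal well above background with vehicle. The bound has no error attached and is not a firm limit.

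Genes linked to polyamine transport had 4 of 13 measured, with a median of −0.54. Slc12a8 was the lowest, from 138 to 64.0 intensity units (−1.06 ± 0.22), and it was −0.62 after normexp and −0.82 under spike-in scaling. Slc3a2, the gene of an amino acid transporter subunit also linked to polyamine export, was −0.46 ± 0.14 with probes at −0.71 and −0.21. Gpc1 was −0.61 ± 0.20, from 3076 to 1946 intensity units. Atp13a2, which encodes a lysosomal polyamine exporter, was 0.90 ± 0.20, and 1.14 under spike-in scaling. Its relative Atp13a3 has no value, since its 1 probe carried an outlier flag on both arrays.

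The remaining polyamine genes were mostly dim. Paox, the gene of the oxidase that acts on acetylated polyamines after Sat1, was −0.10 ± 0.14 with probes at 0.08 and −0.28. Agmat was −0.01 ± 0.21. Azin2, Oaz3, Sat2 and Aoc1 did not come well above background with vehicle or with prednisolone.

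The Myc network, which includes the activator of Odc1 and Srm transcription known from other cells, had 9 of 12 genes measured. None passed 2-fold upward and 1 downward, where 5.76% and 6.62% of all measured genes did, and their median was −0.03. Myc was 0.81 ± 0.14, from 2389 to 3768 intensity units on the brighter probe, and it was 1.05, past 2-fold, under spike-in scaling. Its partner gene Max was 0.51 ± 0.14. Mxi1, which encodes an antagonist that competes for Max, was −1.87 ± 0.20 (4254 and 1126 intensity units). The other measured genes of the list were Mxd4 (−0.67), Mnt (−0.14), Mxd1 (−0.04), Mga (−0.03), Mxd3 (0.19) and Mlxip (0.50). Whether Myc or Mxi1 bears on Srm was not tested.

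**Figure D3:**
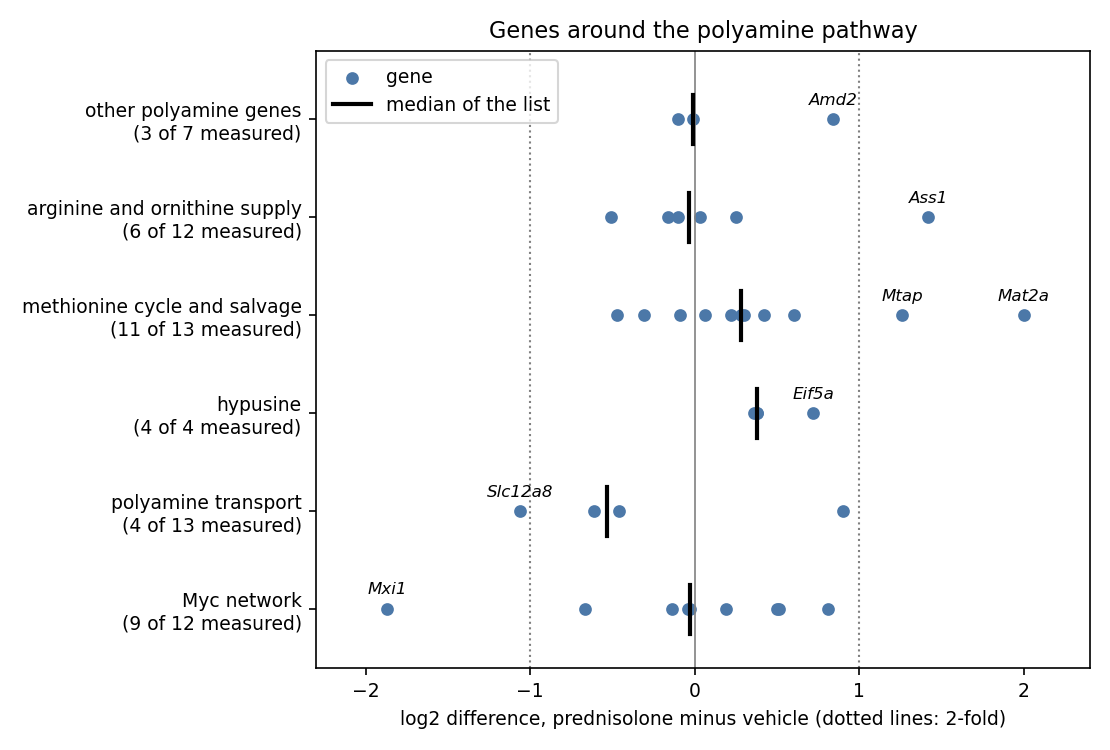
Log2 difference (prednisolone minus vehicle) of each measured gene in the 6 lists around the polyamine pathway, 1 point per gene, with the list's median as a black bar and dotted lines at 2-fold. Mat2a (probes at 1.98 and 2.02), Ass1 (1.42) and Mtap (1.26) lie beyond 2-fold on the right and Mxi1 (−1.87) and Slc12a8 (−1.06) on the left, while all 4 hypusine genes lie between 0.36 and 0.72.

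On each array 53.5% of the non-control spots were well above background and 0 were saturated. The CD8 T cell markers were bright, with 7 of 9 measured, the 2 others (Cd8b1 and Cd3g) left out by flags, and none 2-fold apart. Their summed signal, taking each gene's brightest probe, was 385181 intensity units with vehicle and 319661 with prednisolone. The sums were 4600 and 4003 for 7 myeloid markers, 1441 and 1073 for 4 CD4 T cell markers and 37.7 and 102 for 3 NK markers. Over the markers with a probe well above background on both arrays, flagged ones kept, they were 1176 and 1708 for 3 B cell markers. For 2 erythroid markers they were 249 and 1823, so both of these sums were higher with prednisolone. On the same footing the NK sum was 23.1 and 23.4 and rests on Klrb1c (0.07). Klra8 was well above background with prednisolone only, and Ncr1 was left out by flags. Cd79a, Ms4a1, Lyz2, Adgre1 and Alas2 did not come well above background on an array. Those 3 B cell markers were Pax5 (−0.09), Cd22 (−0.41) and the flagged Cd79b (0.66), and the erythroid ones were Hba-a1 (3.97) and Hbb-bt (0.87). The myeloid markers measured were Cd68 (−2.22), Itgam (0.02) and Csf1r (0.23). Cd14 was well above background with prednisolone only, and Mpo with vehicle only. Their part in the polyamine values was not tested.

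**Figure D4:**
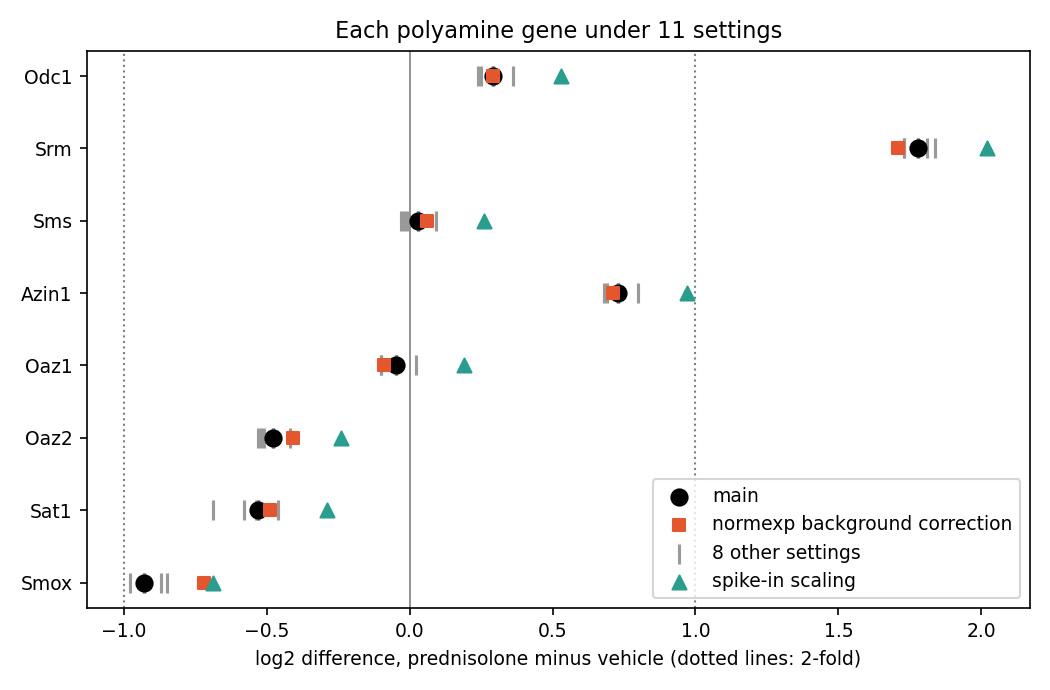
Log2 difference (prednisolone minus vehicle) of each of the 8 polyamine genes under the main setting (circles), spike-in scaling (triangles), normexp background correction (squares) and 8 other settings (ticks), with dotted lines at 2-fold. Srm stays between 1.71 and 2.02, and Sms and Oaz1 are the genes whose values fall on both sides of 0.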

How the data were processed

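The 9 genes and the lists around them were chosen with earlier results of these data known. Per the labels, 100 ng of total RNA per culture was labelled with Cy3 for a 1-colour Agilent mouse array. The deposited scanner files hold linear intensity per spot from Agilent Feature Extraction 12.0.3.1, per the file headers, background-subtracted and not put on a common scale. The deposited value table holds this intensity times 1 constant per array (0.792 for vehicle, 0.858 for prednisolone), of unstated origin.

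Levels are log2 of the deposited processed signal minus log2 of its 75th percentile on that array (400.4 for vehicle, 386.9 for prednisolone) over 59305 spots that are not controls. Outlier-flagged spots were dropped (7.20% and 8.92%). Unversioned accessions were matched to RefSeq (GRCm38.p6), which named 33767 of 56605 probes. The headers name build mm9, so no probe coordinates are given. Probes well above background on both arrays were averaged per gene. The ± combines the software's errors as if probes were independent and leaves out the spread between cultures, which 1 array per group cannot give. Differences of 2-fold (1 in log2) were counted, with no test. The named genes are all members, list genes at least 2-fold apart (or the farthest from 0) and a set written with the lists, and any beyond these were picked after their values were seen.

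The gene summary was tested on simulated data. In all 10 alternatives were run, normexp among them (limma 3.58.1 in R 4.3.3, offset 50, on spot and local background medians in place of the planned spot means). The planned comparison of protein sequences was not made. Python 3.11.15, numpy 2.4.6 and pandas 2.3.3 were used. Some marker values are not reported here.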

Additional observations from a re-analysis of the deposited data

How the results depend on the processing

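The 10 alternatives changed the background correction, the scaling, the treatment of flagged or dim spots, the choice of probe and the source of the values. The count of members at least 2-fold higher was 1 (Srm) and that of members at least 2-fold lower was 0 under each of them. The median of the members moved to 0.23 under spike-in scaling and by less than the software's error under the other 9. Spike-in scaling shifts the median of all genes to 0.24. Among genes 2-fold apart, 70.5% are then higher with prednisolone, in place of 46.6%. It counts 1151 genes higher and 482 lower in place of 690 and 792. Normexp counts 385 and 410, and leaving out the filter on dim probes counts 1460 and 1701, among 21778 genes. Srm ranged from 1.71 (normexp) to 2.02 (spike-in), Azin1 from 0.68 to 0.97, Odc1 from 0.24 to 0.53, Smox from −0.98 to −0.69, Sat1 from −0.69 (brightest probe) to −0.29 and Oaz2 from −0.53 to −0.24, each with its sign kept. Sms (−0.03 to 0.26) and Oaz1 (−0.10 to 0.19) crossed 0 and have no direction here. No replicate could be left out with 1 array per group. Probes at low signal over background, such as the dim probe of Oaz2, are the least precise.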

Other observations

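Some genes near the pathway have values only from spots that the comparison left out. The probe of Atp13a3, a polyamine transporter gene, carried an outlier flag on both arrays and went from 293 to 623 intensity units, a difference of 1.14 with flagged spots kept. Asl, whose product acts after that of Ass1 in remaking arginine, was −0.57 and the methionine salvage gene Apip was 0.39 on the same footing. A second probe of Atp13a2 did not come well above background, with 4.18 intensity units for vehicle and 13.1 for prednisolone. These values were read after the others and carry no count.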
